A study of Mus musculus with 10 samples.

Results

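The heat shock proteins and chaperones were chosen by gene name alone: the HSP70 and HSP110 genes (Hspa and Hsph1), the HSP90 genes, the chaperonins Hspd1, Hspe1, Tcp1 and Cct2 to Cct8, the small heat shock proteins (Hspb), the J-domain genes (Dnaja, Dnajb and Dnajc), the BAG co-chaperones and the heat shock factors Hsf1 and Hsf2. The rule found 86 of the 49671 listed genes, and 77 of these had enough counts to be among the 14528 genes tested. Neural crest cells were labelled with GFP through Wnt1-Cre and the R26mTmG reporter, sorted from mouse embryos at E10.5 and profiled by poly(A) RNA-seq, with 1 library per embryo. There were 5 control embryos (Wnt1Cre;R26mTmG;p53+/+) and 5 littermate embryos with activated p53 (Wnt1Cre;R26mTmG;p53LSL-25,26/+), all of a mixed 129/Sv-C57BL/6 strain. In the second genotype, Cre removes a stop cassette in front of 1 Trp53 allele that encodes a stabilized p53 protein altered at residues 25 and 26. The other Trp53 allele is wild type. The comparison asks how this genotype changes gene expression in neural crest cells. Both groups carry Cre and the reporter, and Wnt1-Cre also acts in the dorsal neural tube, so GFP-positive cells need not all be neural crest. The labels state no heat or stress treatment, while every embryo was digested with trypsin at 37 °C and sorted before lysis.

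Molecular chaperones bind unfolded protein and help it fold, assemble or be handed to the proteasome. HSP70 proteins work in cycles driven by ATP, which J-domain proteins start and BAG proteins help to end by releasing the nucleotide, while HSP90 finishes the folding of kinases and receptors. HSP60 with its lid HSP10 folds proteins in mitochondria, TRiC folds actin and tubulin in the cytosol, and HSF1 switches on a subset of these genes when proteins misfold.

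The names cover more than the heat shock response. Hspb11, for example, encodes a subunit of the intraflagellar transport machinery. The rule takes in 7 of the TRiC subunits and leaves out Cct6a, which stood at 293 ± 50.7 CPM in controls and 288 ± 23.8 CPM in p53-activated embryos (SD, n = 5 each). Hspa14 is listed under 2 overlapping gene identifiers and counts as 2 members. The 9 members that were not tested (Dnaja4, Dnajb7, Dnajb8, Dnajc22, Hspa1l, Hspb3, Hspb6, Hspb7 and Hspb9) had between 2 and 133 counts over the 10 libraries. They were tested only in alternatives that kept lower counts, and none of them was called there.

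Libraries held 12368058 to 28379562 counts. Levels are given as CPM, counts relative to the library total after TMM scaling, a correction for library composition. Cdkn1a, the cell cycle inhibitor that p53 induces, rose from 7.93 ± 1.59 to 105 ± 11.9 CPM (SD, n = 5 each), the direction the genotype labels give. The 13 neural crest markers summed to 407 to 518 CPM in controls and 385 to 468 CPM in p53-activated embryos. Of the 11 neuron markers 9 fell, and their sum went from 912 to 1169 CPM in controls to 471 to 736 CPM in p53-activated embryos. Red cell markers, which these cells do not make, summed to 817 to 4428 CPM in controls and 493 to 5935 CPM in p53-activated embryos. Control embryo 1 and, less so, control embryo 2 stood apart in the Hbb-y to Hbb-bh1 ratio (globins of early red cells), at 4.97 and 2.69 against 1.59 to 2.08 in the other 8. In RNA from sorted cells, fewer cells of one type and less RNA per cell cannot be told apart.

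Few chaperone genes passed the test between the groups. Of the 77 tested members, 2 rose in p53-activated embryos, Dnajb5 and Dnajc9, and 0 fell (edgeR quasi-likelihood test, adjusted p under 0.05 over all tested genes). Across all tested genes the same call was made for 7.23% (4.49% higher, 2.74% lower), against 2.60% of the members. The counts for single families and gene lists below are to be read beside this 7.23%. At that share a short list holds few calls or none. At an unadjusted p under 0.05, 8 members and 22.6% of all tested genes passed. The members' fold changes ran from -1.36 to 0.81 on the log2 scale, with a median of 0.01 beside -0.01 for all tested genes, and 41 lay above 0 and 36 below. For 3 members, Dnajb5, Dnajc9 and Bag6, every p53-activated embryo was above every control embryo, and for 0 members every one was below; over all tested genes 8.07% separated in either way (4.54% higher, 3.52% lower). Taken as one pool of RNA, the members made up 1.51% to 2.04% of a library's counts in controls and 1.83% to 1.97% in p53-activated embryos.

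**Figure D1:**
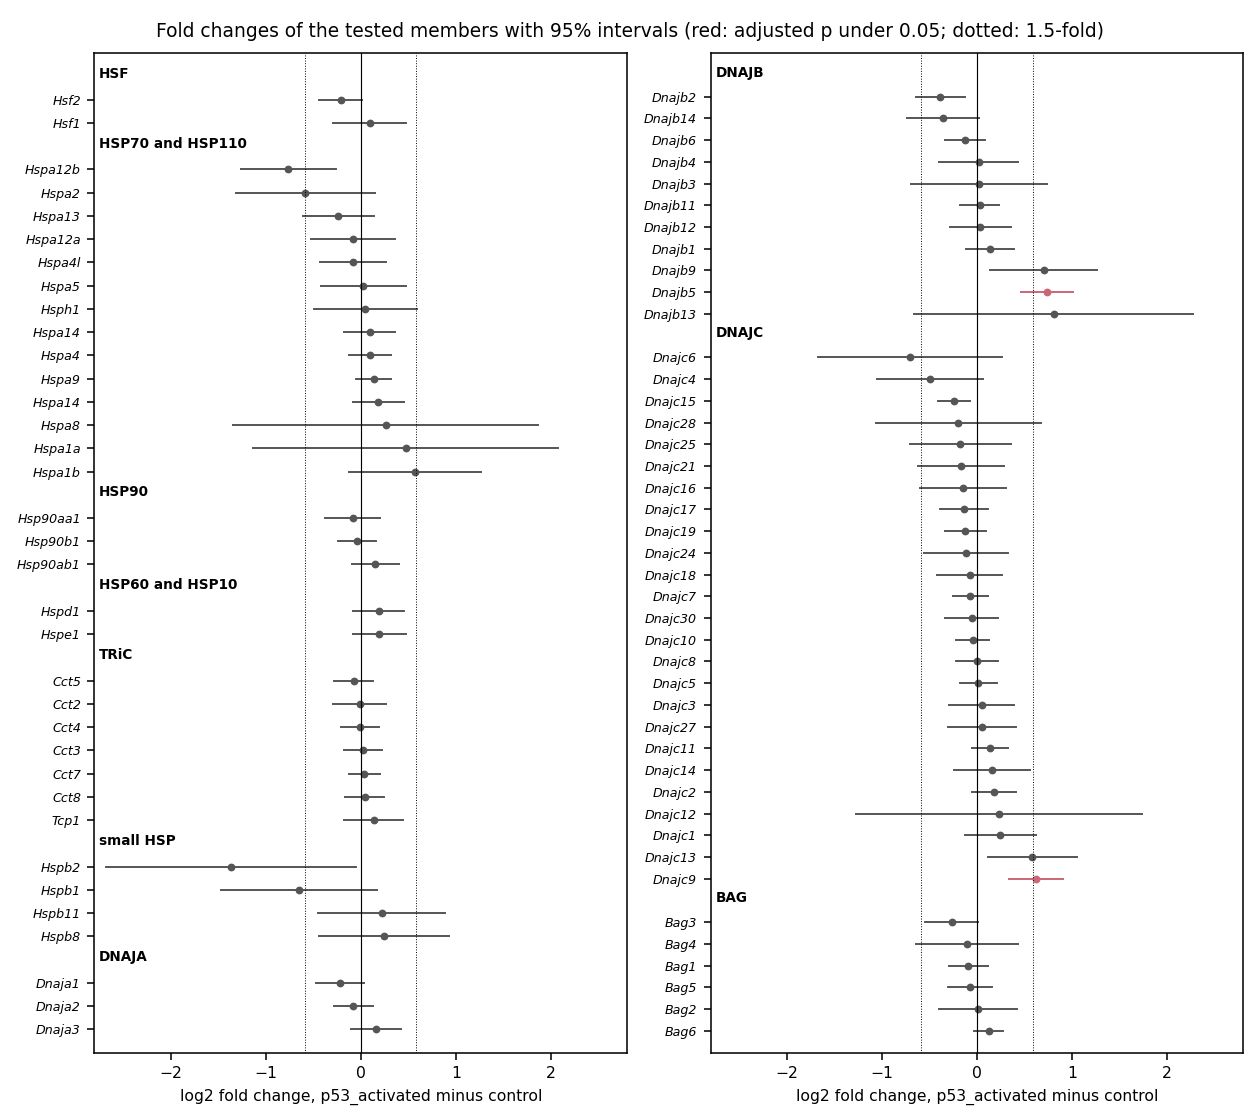
Log2 fold change (p53-activated minus control) of each of the 77 tested members, grouped by family, with 95% intervals computed from the edgeR fit. Red marks adjusted p under 0.05 and the dotted lines mark 1.5-fold. Only Dnajb5 and Dnajc9 are red, and most of the other intervals lie inside the dotted lines.

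The intervals say how large a missed change could be in the fit with all embryos, for 1 gene at a time. They do not cover the dependence on single embryos given below. For 49 of the 77 members (63.6%) the 95% interval of the fold change lay wholly within 1.5-fold of no change, against 42.2% of all tested genes. For 62 members (80.5%) it lay within 2-fold, against 68.5%. Among the members outside this range Hspa8 was the one abundant gene, and the group means of the others were at most 38.3 CPM.

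The promoters of 5 members are shown because the data bear on them: Dnajb5 and Dnajc9 rose, Hspe1 lies head to head with Hspd1 and both were low in the same embryos, and Hspa1b and Hspa5 are the textbook genes of heat shock and of endoplasmic reticulum stress. Each window runs from 250 bases before to 50 after a start site, 5′ to 3′ on the gene's strand (RefSeq, GRCm38.p6), and capitals mark the letters of the motifs searched on both strands. The windows are chr4:42949617-42949916 (Dnajb5, plus strand), chr14:20388861-20389160 (Dnajc9, minus), chr1:55087898-55088197 (Hspe1, plus), chr17:34959189-34959488 (Hspa1b, minus) and chr2:34771840-34772139 (Hspa5, plus).
Dnajb5: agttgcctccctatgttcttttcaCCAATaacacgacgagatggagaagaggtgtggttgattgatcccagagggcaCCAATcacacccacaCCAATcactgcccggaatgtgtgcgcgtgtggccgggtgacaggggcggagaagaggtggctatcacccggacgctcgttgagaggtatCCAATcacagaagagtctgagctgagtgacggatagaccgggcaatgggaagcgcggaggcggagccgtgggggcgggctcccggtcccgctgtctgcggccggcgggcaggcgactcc
Dnajc9: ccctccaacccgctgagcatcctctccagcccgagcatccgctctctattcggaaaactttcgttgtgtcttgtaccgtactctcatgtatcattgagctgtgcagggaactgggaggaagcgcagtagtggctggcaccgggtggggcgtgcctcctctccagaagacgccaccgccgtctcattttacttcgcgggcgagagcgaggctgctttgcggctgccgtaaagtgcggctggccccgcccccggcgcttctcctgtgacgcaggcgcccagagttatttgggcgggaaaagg
Hspe1: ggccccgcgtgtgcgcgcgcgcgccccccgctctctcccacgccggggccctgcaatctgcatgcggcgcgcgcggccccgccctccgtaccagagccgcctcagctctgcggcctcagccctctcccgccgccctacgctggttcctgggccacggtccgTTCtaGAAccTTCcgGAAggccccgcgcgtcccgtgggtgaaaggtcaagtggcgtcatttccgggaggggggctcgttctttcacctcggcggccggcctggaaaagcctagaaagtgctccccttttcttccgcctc
Hspa1b: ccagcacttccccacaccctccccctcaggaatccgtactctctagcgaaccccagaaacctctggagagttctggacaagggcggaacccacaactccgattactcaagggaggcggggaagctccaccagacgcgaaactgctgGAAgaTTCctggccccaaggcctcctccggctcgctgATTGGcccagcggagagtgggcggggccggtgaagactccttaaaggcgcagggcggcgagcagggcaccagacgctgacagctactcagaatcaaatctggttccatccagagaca
Hspa5: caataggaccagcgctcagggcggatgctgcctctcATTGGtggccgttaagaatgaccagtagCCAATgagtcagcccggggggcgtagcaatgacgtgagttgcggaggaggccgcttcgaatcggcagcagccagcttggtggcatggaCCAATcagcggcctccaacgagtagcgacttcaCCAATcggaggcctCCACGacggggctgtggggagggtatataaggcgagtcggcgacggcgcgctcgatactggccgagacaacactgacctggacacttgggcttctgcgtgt

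The searched motifs were GAANNTTC or TTCNNGAA (the paired units of a heat shock element, which HSF1 binds), CCAAT, the endoplasmic reticulum stress element (CCAAT and CCACG with any 9 bases between them, so that each match is also a CCAAT match) and the core of a full p53 element (CATG and again CATG with any 6 bases between them). Hspa1b holds 1 GAANNTTC, whose first letter lies 104 bases before the start. Hspe1 holds overlapping units of both orders, and Hspa5 holds the stress element 65 bases before its start. Dnajb5 holds 4 CCAAT in the window shown, and Dnajc9 holds none of the searched motifs. RefSeq windows were found for 69 of the 85 member symbols (89 windows, since some genes have several starts).

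Heat shock units were present in 20 of the 89 member windows (22.5%) and in 15.1% of the 32851 windows of all genes. They were held by 11 of 18 windows (61.1%) of the members known to respond to HSF1 and by 9 of 71 windows (12.7%) of the other members. The 18 windows belong to 12 of the 15 listed genes known to respond to HSF1. Some windows overlap, as those of Hspd1 and Hspe1 do, so the windows are not all separate promoters. CCAAT was found in 37.1% of the member windows and 37.4% of all windows. The stress element was found in 3 member windows, those of Hspa5, Hsp90b1 and Dnajc3 (3.37%, against 0.119% of all). The p53 core was in 0 member windows and in 0.712% of all, a share at which few matches could be looked for in 89 windows. Only this 1 form of the core was searched, within 300 bases, so 0 matches do not show that the members lack p53 sites. A match is a description of letters, not a bound site.

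Hsf1, the factor activated by misfolded protein, stood at 16.5 ± 3.47 CPM in controls and 17.6 ± 3.85 CPM in p53-activated embryos (SD, n = 5 each). Its log2 fold change was 0.10 ± 0.18 (SE), with an edgeR adjusted p of 0.808. Hsf2, a factor with roles in development, was at 76.3 ± 9.89 and 66.1 ± 6.53 CPM, a log2 difference of -0.21 ± 0.11 (edgeR adjusted p 0.259). Neither passed the test, and the intervals allow 0.819 to 1.39 times the control level for Hsf1 and 0.740 to 1.01 times for Hsf2.

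Among the 15 members known as HSF1-inducible, 0 rose and 0 fell, against 7.23% called of all tested genes. They are Hspa1a, Hspa1b, Hspa8, Hsph1, Hsp90aa1, Hsp90ab1, Dnaja1, Dnajb1, Dnajb4, Hspb1, Hspb8, Hspd1, Hspe1, Bag3 and Hspa4l. The list is not limited to genes silent without stress, since Hspa8 and Hsp90ab1 are constitutive forms and Hspd1 and Hspe1 mitochondrial chaperonins. The median log2 fold change of the 15 was 0.14, beside -0.01 for all tested genes, with 10 above 0 and 5 below. Without control embryos 1 and 2 the median of these 15 was -0.11, with 4 above 0 and 11 below, so the direction of the list turned with those embryos. It was 0.05 without control embryo 1 alone, 0.06 without control embryo 2, 0.03 without p53-activated embryo 5 and 0.00 without p53-activated embryos 4 and 5. Hspa1a and Hspa1b, the stress-inducible HSP70 genes that are nearly silent without stress, had low counts in every library. The 2 genes are nearly identical in sequence, as given below, so reads that fit both may be missing from the counts of each. Hspa1b read 2.62, 1.42, 1.29, 2.94 and 3.06 CPM in control embryos 1 to 5 and 3.30, 4.57, 3.67, 3.06 and 2.15 CPM in p53-activated embryos 1 to 5. The 2 groups overlapped, and control embryos 2 and 3 were the lowest. The log2 fold change of Hspa1b was 0.57 ± 0.33 (edgeR adjusted p 0.322), and its 95% interval runs from 0.921 to 2.40 times the control level.

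Hspa1a had 154 counts in all 10 libraries together, 0.793 ± 0.730 CPM in controls and 1.11 ± 0.650 CPM in p53-activated embryos. Its log2 fold change of 0.47 ± 0.75 (edgeR adjusted p 0.767) is uncertain for a further reason: Hspa1a and Hspa1b share 2201 bases at 99.23% identity, so reads may be split or dropped between them, and 19.01% of the Hspa1a exons overlap Gm20481 on the opposite strand. Dnajb1, the J-domain partner of inducible HSP70, was at 70.6 ± 12.6 and 77.6 ± 7.36 CPM (0.14 ± 0.12 on the log2 scale, edgeR adjusted p 0.552). Bag3, which links HSP70 to autophagy and is also induced by HSF1, was at 21.7 ± 2.02 and 18.1 ± 2.48 CPM (-0.27 ± 0.13, edgeR adjusted p 0.246). Hspb1, a small heat shock protein that holds unfolded protein, was at 3.89 ± 1.06 and 2.44 ± 1.62 CPM (-0.64 ± 0.39, edgeR adjusted p 0.353). The Hspb1 value was -1.14 without p53-activated embryo 4 (adjusted p 0.0616) and -0.42 without p53-activated embryo 3.

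The 12 immediate early genes that tissue dissociation can induce were measured beside these, since trypsin digestion preceded the sort. Of them 2 rose (16.7%, against 7.23% called of all tested genes) and 0 fell. Btg2, itself a p53 target, rose by 0.72 ± 0.11 and Jun by 0.68 ± 0.19 on the log2 scale (edgeR adjusted p 0.000735 and 0.0486). The groups did not overlap for Btg2 but did for Jun. The median log2 fold change of the 12 genes was 0.35, with 11 above 0 and 1 below. Their part in the inducible chaperones' values was not tested.

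Dnajb5 encodes a cytosolic J-domain co-chaperone of HSP70 (ENSMUSG00000036052, chr4:42949814-42959425, GRCm38). It read 22.9, 28, 18.3, 22.5 and 23.3 CPM in control embryos 1 to 5 and 43.0, 39.9, 40.3, 32.8 and 35.2 CPM in p53-activated embryos 1 to 5. The lowest p53-activated embryo was above the highest control embryo. The mean rose from 23.0 ± 3.45 to 38.3 ± 4.13 CPM (SD, n = 5 each), 1.67-fold with a 95% interval of 1.38 to 2.01 (log2 fold change 0.74 ± 0.13, edgeR adjusted p 0.00237). It kept the call in all 21 alternative analyses, with log2 fold changes of 0.67 to 0.85 and adjusted p of 7.05e-06 to 0.00864 in edgeR, DESeq2 and limma. Without control embryos 1 and 2 it read 0.84 ± 0.14 (adjusted p 0.00188, edgeR).

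Dnajc9 encodes a nuclear J-domain protein that recruits HSP70 to histones H3 and H4 during chromatin assembly (ENSMUSG00000021811, chr14:20384638-20388910). It read 73.7, 93.3, 107, 124 and 127 CPM in control embryos 1 to 5 and 180, 171, 170, 143 and 145 CPM in p53-activated embryos 1 to 5. The groups did not overlap, but the gap was narrow, from control embryo 5 to p53-activated embryo 4, and control embryos 1 and 2 were the lowest of all. The mean rose from 105 ± 22.2 to 162 ± 16.9 CPM, 1.54-fold with a 95% interval of 1.27 to 1.87 (log2 fold change 0.62 ± 0.13, edgeR adjusted p 0.0104). It kept the call in all 21 alternative analyses, with adjusted p of 0.000677 to 0.0364 in edgeR, DESeq2 and limma. Its log2 fold change was 0.44 without control embryos 1 and 2 (edgeR adjusted p 0.0289) and 0.74 without p53-activated embryos 4 and 5 (adjusted p 0.0152).

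**Figure D2:**
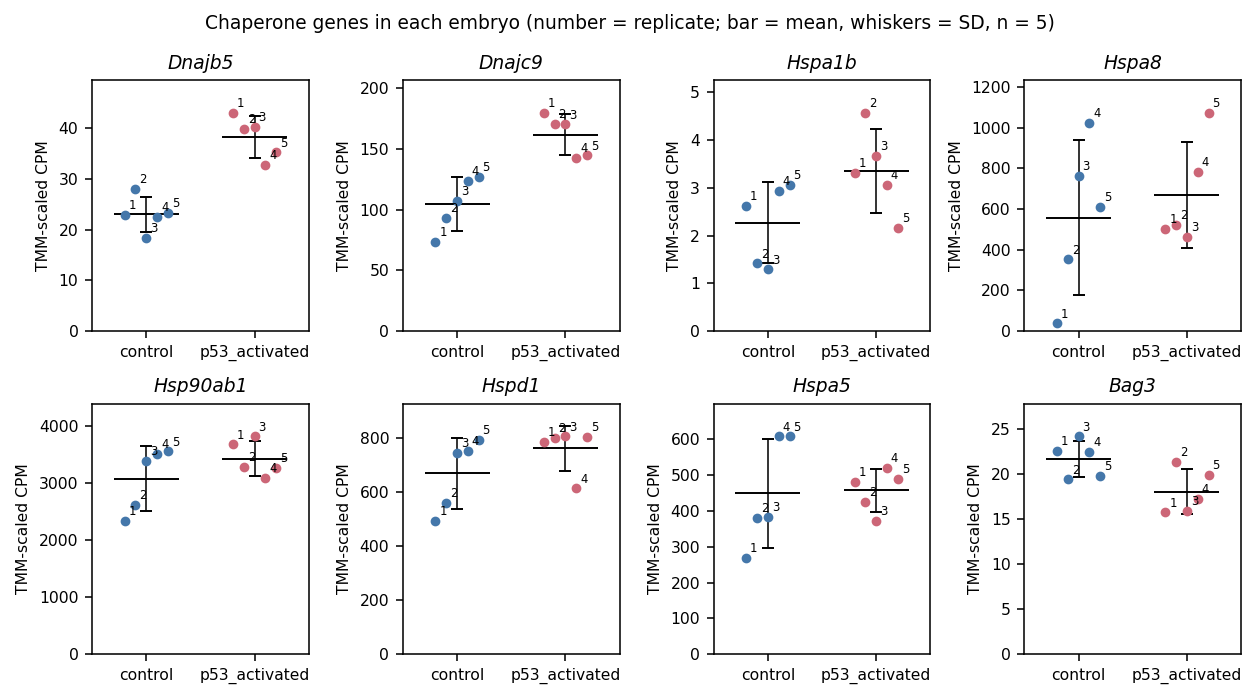
TMM-scaled CPM of 8 members in each embryo, with the replicate number beside each point, the group mean (bar) and SD (whiskers, n = 5 per group); each panel has its own linear axis from 0. Dnajb5 (18.3 to 28 against 32.8 to 43.0 CPM) and Dnajc9 (73.7 to 127 against 143 to 180 CPM) separate the groups, and the other 6 overlap.

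The 5 members next in order of adjusted p did not pass. Hspa12b, an atypical HSP70 known from endothelial cells, was at 31.5, 27.3, 23.2, 16.1 and 12.7 CPM in control embryos 1 to 5 and at 13.6, 14.2, 8.90, 11.8 and 16.9 CPM in p53-activated embryos 1 to 5. Control embryos 1 to 3 were above every p53-activated embryo, and control embryos 4 and 5 were within their range. Its log2 fold change was -0.76 ± 0.23 (edgeR adjusted p 0.0615). The adjusted p of Hspa12b was 0.0479 with upper quartile scaling, 0.0479 with no filter on low counts, 0.0191 in DESeq2 and 0.0193 in edgeR without control embryo 5. Over all alternatives it ran from 0.0191 to 0.329, and without control embryos 1 and 2 the log2 fold change was -0.41 (adjusted p 0.329). The 4 endothelial markers summed to 4.25 to 17.9 CPM in controls and 4.84 to 14.4 CPM in p53-activated embryos, with Cdh5 at 0 in 3 libraries and Tie1 in 1. The 3 of them that could be tested gave 0 calls, and their part in the Hspa12b values was not tested.

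Dnajb2, a J-domain protein abundant in neurons that directs clients to the proteasome, was at 134, 110, 80.1, 89.8 and 88.9 CPM in control embryos and at 71.5, 78.0, 75.2, 78.9 and 81.5 CPM in p53-activated embryos. Control embryos 1 and 2 were the highest, and only control embryo 3 lay within the range of the other group. The log2 fold change was -0.39 ± 0.12 (edgeR adjusted p 0.067). For Dnajb2 the adjusted p was 0.0425 with upper quartile scaling, 0.0396 with no filter and 0.0337 without control embryo 3. It ran up to 0.329 without control embryos 1 and 2, where the log2 fold change was -0.16, and the log2 fold change was -0.26 without control embryo 1 alone. The neuron marker sum fell over the same contrast, as given above, and its part in the Dnajb2 values was not tested.

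Of the other 3, Dnajc15, a J-domain protein of the mitochondrial import motor, was at 106 ± 7.71 and 89.6 ± 4.2 CPM (-0.24 ± 0.08 on the log2 scale, edgeR adjusted p 0.0804). Dnajb9, a co-chaperone of BiP in the endoplasmic reticulum, was at 3.96 ± 1.44 and 6.41 ± 1.27 CPM (0.70 ± 0.26, adjusted p 0.124). Dnajc13, which acts on endosomes, was at 11.1 ± 2.16 and 16.5 ± 5.85 CPM (0.58 ± 0.22, adjusted p 0.124). The Dnajc13 value was 0.36 without p53-activated embryo 4 (adjusted p 0.294), which held 25.6 CPM. In the authors' deposited table, 4 of the 78 members with an adjusted p were under 0.05 (5.13%, against 10.8% of all 15089 genes with one). These were Dnajb5 and Dnajc9, higher, and Hspa12b (log2 fold change -0.66, adjusted p 0.0172) and Dnajb2 (-0.36, adjusted p 0.0467), lower.

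By level per exon length, HSP90 genes and chaperonins were among the highest members. Length here is the union of all annotated exons of a gene, so genes with many annotated forms can read lower. The order of genes and families therefore depends in part on the annotation. Cct3, at 1156 CPM in controls, has 6370 bases of exon, while Cct5, at 1900 CPM in controls, has 2766. Hsp90ab1, the constitutive cytosolic HSP90, had the highest level at 1087 CPM per kilobase (mean of the 2 group means). Cct5 followed at 670, Bag1 at 538, Hsp90aa1 at 536 and Hspe1 at 494 CPM per kilobase. Bag1 and Hsp90aa1 lie closer to each other than their spread between embryos. At the other end Hspa1a stood at 0.320 and Dnajc12 at 0.158 CPM per kilobase. The tested J-domain genes were lower as families, with medians of 13.8 (DNAJA), 5.16 (DNAJB) and 6.20 (DNAJC) CPM per kilobase, against 171 for TRiC. The 4 tested small heat shock genes reached at most 3.07 CPM per kilobase, in Hspb1.

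**Figure D3:**
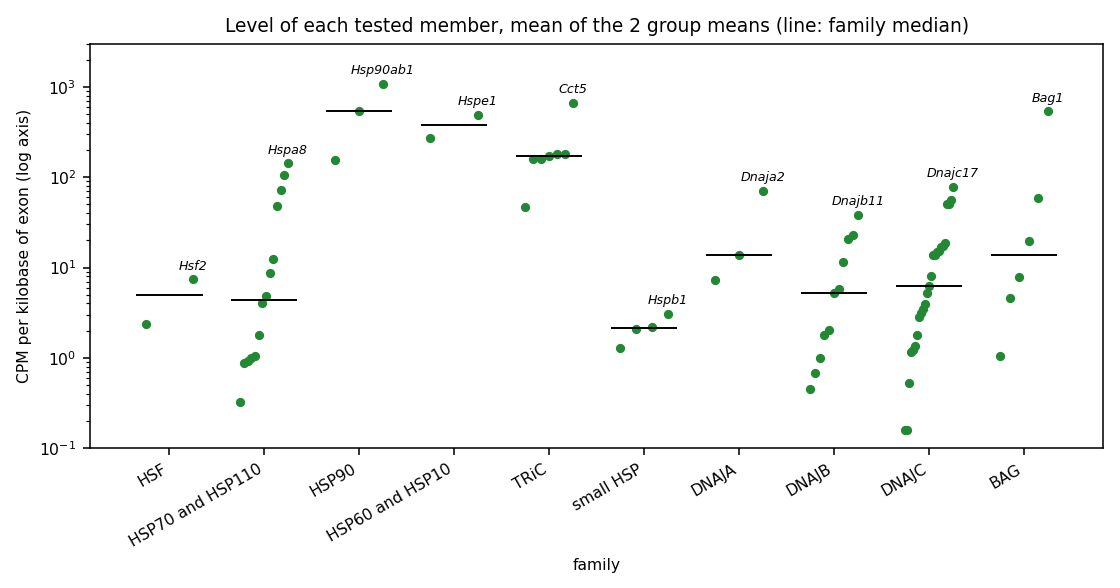
Level of each tested member in CPM per kilobase of exon (log axis), as the mean of the 2 group means, by family; the line is the family median and the highest gene of each family is named. The families span from 1087 in Hsp90ab1 to 0.158 in Dnajc12.

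None of the 3 HSP90 genes passed the test, against 7.23% of all tested genes. Hsp90ab1 read 2334, 2621, 3392, 3516 and 3561 CPM in control embryos 1 to 5 and 3685, 3288, 3825, 3098 and 3267 CPM in p53-activated embryos 1 to 5. Control embryos 1 and 2 lay below all others, and the remaining 8 overlapped. Its log2 fold change was 0.15 ± 0.12 (edgeR adjusted p 0.475). Hsp90aa1, the inducible cytosolic form, was at 2169 ± 457 and 2044 ± 255 CPM (-0.09 ± 0.14, adjusted p 0.765). Hsp90b1, the form of the endoplasmic reticulum, was at 631 ± 60.9 and 614 ± 67.1 CPM (-0.04 ± 0.09, adjusted p 0.855), with an interval of 0.849 to 1.12 times the control level.

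The HSP70 and HSP110 family had 14 tested members, of which 0 rose and 0 fell (median log2 fold change 0.07), against 7.23% called of all tested genes. Hspa5, or BiP, the HSP70 of the endoplasmic reticulum, read 268, 379, 383, 608 and 608 CPM in control embryos 1 to 5 and 480, 425, 372, 520 and 490 CPM in p53-activated embryos 1 to 5. The controls spanned the whole range of the other group, from embryo 1 below it to embryos 4 and 5 above it. The log2 fold change was 0.03 ± 0.20 (edgeR adjusted p 0.961). Hspa9, the HSP70 of mitochondria, was at 296 ± 23.9 and 325 ± 27.5 CPM (0.14 ± 0.09, adjusted p 0.388). Hspa4, an HSP110 nucleotide exchange factor, was at 257 ± 35.7 and 274 ± 21.5 CPM (0.10 ± 0.10, adjusted p 0.639).

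Hspa8, the constitutive HSP70 that uncoats clathrin vesicles, was the member with the largest spread between embryos of 1 genotype. It read 37.2, 352, 762, 1024 and 610 CPM in control embryos 1 to 5 and 503, 522, 463, 783 and 1072 CPM in p53-activated embryos 1 to 5. The highest library was 28.8 times the lowest, which was control embryo 1 with 654 counts, and 3.05 times the lowest of the other 9. The within-group SD of log2 CPM was 1.40, the fifth largest of the 1842 genes over 100 CPM, whose median SD was 0.15. The 4 above it were Xist, which is on in females only, Rpl29, and the pseudogenes Gm8730 and Rpsa-ps10. The sign of the Hspa8 fold change depended on which embryos were kept. On the log2 scale it was 0.26 ± 0.70 with all embryos (edgeR adjusted p 0.872) and -0.04 ± 0.37 without control embryo 1 (adjusted p 0.967). It was 0.03 ± 0.76 without p53-activated embryo 5 (edgeR adjusted p 0.990) and -0.16 ± 0.88 without p53-activated embryos 4 and 5 (adjusted p 0.948). The interval with all embryos, 0.394 to 3.65 times the control level, leaves the direction unknown.

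The genome holds loci nearly identical to Hspa8 (at least 95% identity over at least 200 bases), and 8 of them are listed in the count table. Together these 8 had 32 to 83 counts per library, or 2.52 to 5.17 CPM, a range of 2.06-fold. Their sum was 8.72% of the Hspa8 count in control embryo 1 and 0.305% to 1.03% in the other 9 libraries. Reads that fit several of these loci may be dropped rather than counted, so the counts at the copies do not show where such reads went, and the cause of the low Hspa8 count in control embryo 1 was not tested. Exons of Hspa8 also overlap small nucleolar RNA genes of the Snord14 group on the same strand (6.09% of exon length).

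**Figure D4:**
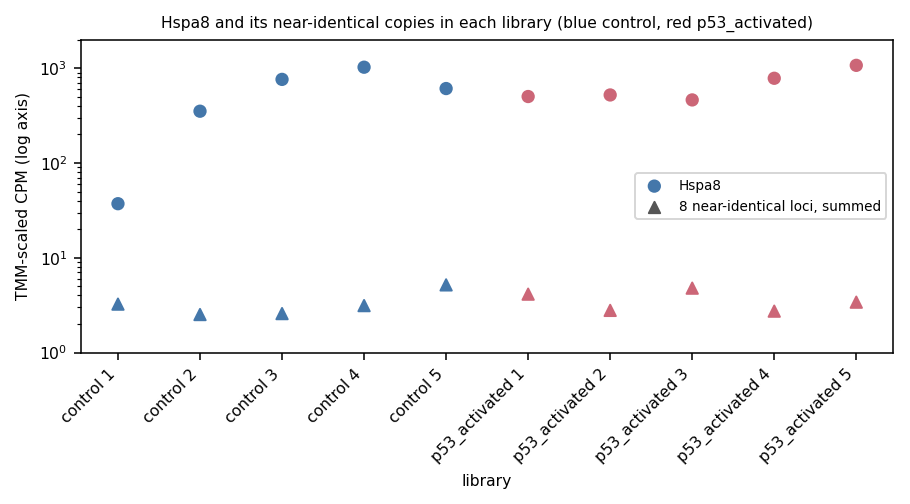
Hspa8 (circles) and the sum of its 8 near-identical listed loci (triangles) in each of the 10 libraries, in TMM-scaled CPM on a log axis; blue is control and red p53-activated. Hspa8 is at 37.2 CPM in control embryo 1 and at 352 to 1072 CPM elsewhere, while the copies stay between 2.52 and 5.17 CPM.

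Hsph1, the HSP110 that exchanges nucleotide on HSP70, followed a similar order, at 44.2, 68.1, 89.0, 119 and 119 CPM in control embryos 1 to 5 and 81.8, 74.4, 83.2, 110 and 105 CPM in p53-activated embryos 1 to 5. Here too control embryos 1 and 2 were the lowest, and the groups overlapped (log2 fold change 0.05 ± 0.25, edgeR adjusted p 0.935).

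The mitochondrial chaperonins were low in the same embryos. Hspd1 (HSP60) read 495, 562, 746, 754 and 793 CPM in control embryos 1 to 5 and 787, 800, 808, 615 and 805 CPM in p53-activated embryos 1 to 5. Hspe1 (HSP10) read 509, 562, 764, 764 and 797 CPM in controls and 846, 818, 871, 629 and 719 CPM in p53-activated embryos. Control embryos 1 and 2 and p53-activated embryo 4 were the 3 lowest for Hspd1 and for Hspe1. The ratio of the Hspd1 to the Hspe1 CPM stayed between 0.927 and 1.12.

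The 2 genes lie head to head, and 1 of the 2 RefSeq windows of Hspd1, on the opposite strand, shares 285 bases with the Hspe1 window (chr1:55087898-55088182), the heat shock units shown above among them. The other Hspd1 window (chr1:55088194-55088493), which holds the start of the annotated gene at 55088243, has a CCAAT and no heat shock unit. Their exons overlap over 4.24% of the Hspd1 and 7.60% of the Hspe1 exon length, where unstranded reads could not be told apart. Neither passed the test: the log2 fold change was 0.19 ± 0.13 for Hspd1 and 0.19 ± 0.13 for Hspe1 (edgeR adjusted p 0.424 and 0.423).

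No TRiC subunit passed the test. Of its 7 tested subunits, 0 rose and 0 fell, against 7.23% called of all tested genes. The fold changes of the 7 ran from -0.07 to 0.14 on the log2 scale (median 0.02). Cct5 was at 1900 ± 104 and 1805 ± 251 CPM (-0.07 ± 0.10 on the log2 scale, edgeR adjusted p 0.706), and its interval runs from 0.825 to 1.09 times the control level. Tcp1, the alpha subunit, was at 222 ± 42.8 and 244 ± 44.5 CPM (0.14 ± 0.15, adjusted p 0.645). Its value is less sure, since 16.9% of its exon length overlaps other genes and a 445-base stretch has a near-identical copy in Acat2. With prefoldin, which hands actin and tubulin to TRiC, the list had 16 genes, 0 higher and 0 lower, with a median of -0.02.

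Among the J-domain families, Dnajb5 was the 1 called of 11 DNAJB genes (median log2 fold change 0.03) and Dnajc9 the 1 called of 25 DNAJC genes (median -0.06). None of the 3 DNAJA genes passed, and 7.23% of all tested genes did. Dnaja1, a general partner of cytosolic HSP70, was at 128 ± 23.5 and 110 ± 10.5 CPM (-0.22 ± 0.12, edgeR adjusted p 0.298). Control embryos 4 and 5, at 150 and 152 CPM, were the highest for Dnaja1, and without control embryos 1 and 2 it passed the test as lower (-0.39, adjusted p 0.04). Dnajb13, known from sperm and cilia, and Dnajc12, a partner of aromatic amino acid hydroxylases, were among the most variable members at log2 fold changes of 0.81 ± 0.69 and 0.23 ± 0.71, each from a mean under 2 CPM.

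The 6 BAG genes, which pair HSP70 with other factors, gave 0 calls (median log2 fold change -0.08), against 7.23% called of all tested genes. Bag1, the nucleotide exchange factor that links HSP70 to the proteasome, was at 749 ± 102 and 703 ± 57.4 CPM (-0.09 ± 0.10, edgeR adjusted p 0.639). Bag6, which captures membrane proteins that miss their target, read 343, 339, 343, 360 and 354 CPM in control embryos 1 to 5 and 371, 367, 417, 375 and 364 CPM in p53-activated embryos 1 to 5. The groups did not overlap, but the log2 fold change was 0.12 ± 0.07 and did not pass (adjusted p 0.358). Bag6 had the smallest within-group SD of the tested members, 0.06 on the log2 scale, against a median of 0.25 over the members and 0.30 over all tested genes.

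Of the 8 small heat shock genes only 4 could be tested, and 0 passed, against 7.23% of all tested genes. Hspb2, a muscle small heat shock protein, had the largest fold change of any member: 1.57 ± 1.2 CPM in controls and 0.582 ± 0.416 CPM in p53-activated embryos, or -1.36 ± 0.62 on the log2 scale (edgeR adjusted p 0.205). This was -0.80 without control embryo 1, which held 3.58 CPM. Hspb2 shares 30.22% of its exon length with Cryab, which lies head to head on the opposite strand and encodes alpha-B-crystallin, and Cryab read -1.13 ± 0.54 (adjusted p 0.226). Of the 11 muscle markers tested 1 fell and 0 rose, and the sum of the 13 listed was 114 to 195 CPM in controls and 83.3 to 145 CPM in p53-activated embryos, with Nppa at 0 in 6 libraries and Myf5 and Myod1 in 1 each. Their part in the Hspb2 values was not tested.

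Some embryos were low for many members at once. Control embryo 1 held the lowest value for 28 of the 77 members (36.4%), against 16.7% of all tested genes. Among members over 50 CPM it was the lowest for 18 of 36 (50%), against 20% of 3340 such genes. p53-activated embryo 4 was the lowest for 18 members (23.4%, against 16.1%), and control embryo 5 for 0 (against 8.19%). Both low embryos were also often the highest over all tested genes. Control embryo 1 held the highest value for 11 members (14.3%, against 19.4% of all tested genes). p53-activated embryo 4 held it for 9 members (11.7%, against 17.2%). Leaving out control embryos 1 and 2 moved the members' median log2 fold change from 0.01 to -0.07, while that of all tested genes went from -0.01 to -0.00. Of the named members, 10 that lay above 0 with all embryos lay below 0 without these 2: Hsf1, Hspa4, Hspa5, Hspa8, Hsph1, Hsp90ab1, Hspd1, Tcp1, Dnajb1 and Dnajc12. The 2 calls of higher members were made with and without these embryos. What sets control embryos 1 and 2 apart was not tested.

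**Figure D5:**
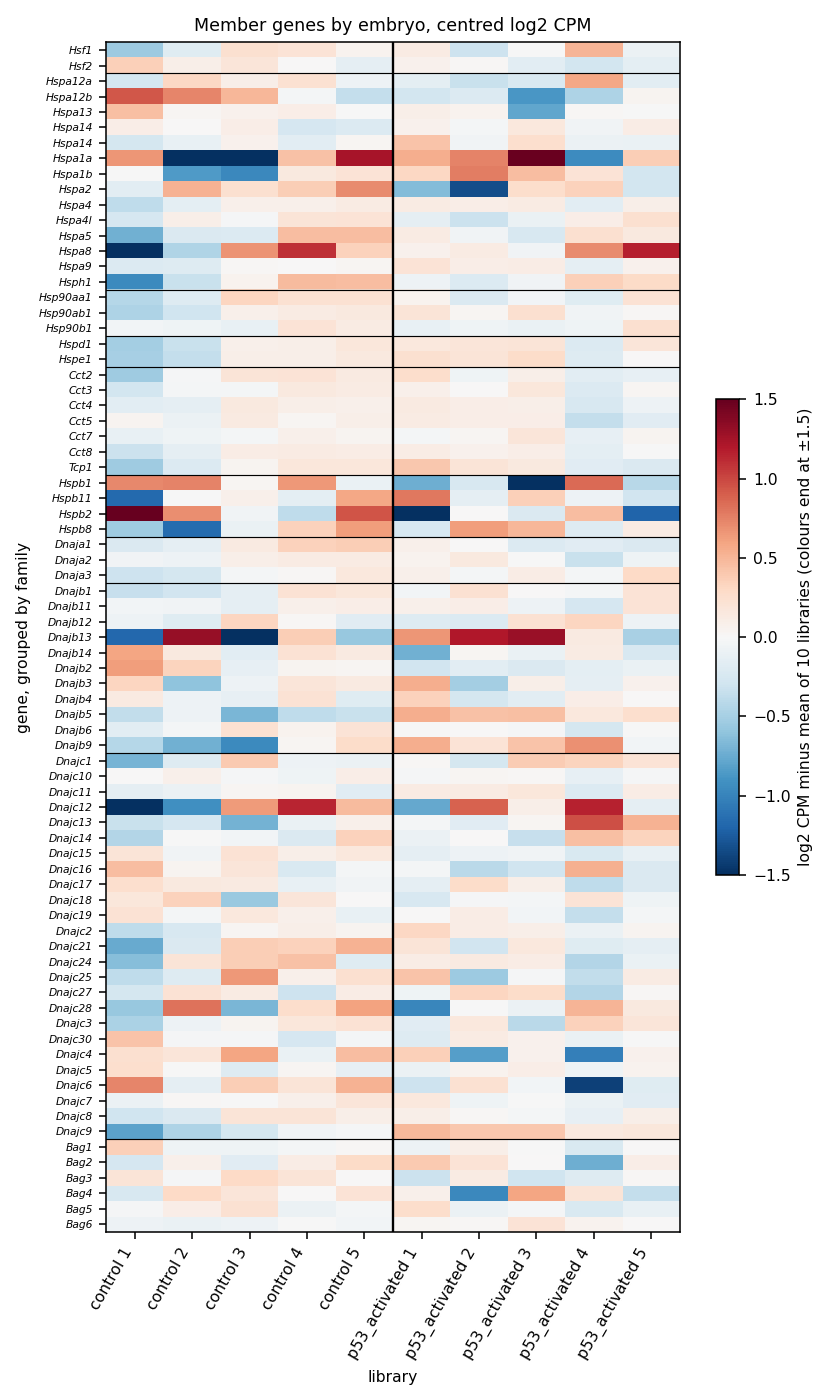
Log2 CPM of each tested member in each library, minus the mean of the 10 libraries, grouped by family; the vertical line parts control from p53-activated embryos and colours end at ±1.5. Control embryo 1 is blue (low) for many HSP70, HSP90, chaperonin and TRiC genes, and p53-activated embryo 4 is pale blue for TRiC, while Dnajb5 and Dnajc9 change colour at the line.

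Genes outside the naming rule that work with these chaperones were counted in the same way, beside the 7.23% called of all tested genes. The endoplasmic reticulum list had 22 genes, 9 of them members, with 0 higher, 0 lower and a median log2 fold change of -0.03. Of 16 mitochondrial chaperones and proteases 1 rose (6.25%, near the share of all tested genes), Clpb, a disaggregase of the intermembrane space. Clpb went from 57.8 ± 3.54 to 72.4 ± 4.52 CPM (0.32 ± 0.09, edgeR adjusted p 0.0352), with no overlap between the groups. The 31 tested co-chaperones of HSP90 and HSP70 gave 0 calls (median -0.05), and so did the 31 proteasome subunits (median -0.10) and the alpha-crystallins Cryab and Cryaa.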

How the data were processed

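The authors deposited a table of raw counts per gene for the 10 libraries, made with HISAT2 2.0.4, SAMtools 1.3.1, HTSeq 0.6.1 and the GRCm38 build, per the submitters' processing notes. Which annotation was counted against, and whether by strand, is not given in the sources used here. The authors also deposited a DESeq2 1.14.1 comparison with its mean signal, log2 fold change and standard error, score (test statistic), p-value and adjusted p-value, per the file headers. Members are genes whose symbol there fits the naming rule. The members and gene lists were chosen with earlier results of these data known.

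Counts were filtered with filterByExpr (minimum count 10, minimum total 15), scaled by TMM and fitted without covariates over all 10 libraries with edgeR 4.0.16 (glmQLFit, robust, and glmQLFTest) in R 4.3.3, with Benjamini-Hochberg adjustment over all 14528 tested genes and a threshold of 0.05. Fold changes are on the log2 scale, each SE is that change over the root of its F statistic, and a prior count of 2 was used for log2 CPM. The biological coefficient of variation was 25.5%, which with 5 embryos a group limits the precision. Scripts were tested on simulated data. Exon lengths, coordinates and overlaps come from GENCODE M21 (GRCm38), which held 99.5% of the gene identifiers. The genes named are those called, the 5 next by adjusted p, the 5 highest per length, the 5 most variable and a set of well-known chaperones. Other genes, such as Bag6, are named where they are the few that a count covers. Alternatives were other scaling (RLE, upper quartile), other filters, DESeq2 1.42.0, limma 3.58.1 (voom), a replicate block, embryo sex, a gene length trend and leaving out embryos.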

Additional observations from a re-analysis of the deposited data

Results flagged for a closer look

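Of the 62 combinations of a group and a named member, 4 had 1 embryo far from the other 4, by a gap over 0.710 of the group's range. Chance gives about 1 in 20 for independent values, and 4 of 62 is near that rate. The rate is only a rough guide here. Some named members were picked for their spread or small p in these data, and members can vary together. Bag1 was highest in control embryo 1, at 928.37 CPM with the nearest at 731.04 CPM (gap 0.823 of the range). Hspd1 was lowest in p53-activated embryo 4, at 614.9 CPM with the nearest at 787.12 CPM (0.894). Hspa4 was lowest in the same embryo, at 236.21 CPM with the nearest at 280.13 CPM (0.863). Hsp90b1 was highest in p53-activated embryo 5, at 733.54 CPM with the nearest at 591.82 CPM (0.899). None of these 4 members passed the test between the groups.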

How the results depend on the processing

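Dnajb5 and Dnajc9 were the 2 members called higher, and these same 2 were called in all 21 alternatives. The count of members called lower was 0 and became 2 with upper quartile scaling and 2 with no filter on low counts (Dnajb2 and Hspa12b in both), 1 with DESeq2 (Hspa12b) and 1 without control embryos 1 and 2 together (Dnaja1), and it was 0 to 1 when single embryos were left out (Dnajb2 without control embryo 3, Hspa12b without control embryo 5). Over all genes, 652 were higher and 398 lower. Leaving out single embryos gave 430 to 707 higher and 192 to 433 lower. The lower count was 661 with DESeq2, 245 with embryo sex as a term and 194 without control embryos 1 and 2 together. The cause of these differences was not tested. Fits that leave out embryos also have fewer samples, and the part of this was not tested either. Upper quartile scaling moved the median of all genes from -0.01 to -0.05. Same-numbered embryos showed no clear pairing. Correlations of their deviations ran from 0.0159 to 0.0930 over 2000 genes, against -0.160 to 0.142 for embryos of different number. The sample labels do not say which embryos shared a litter, and litter was not modelled. A replicate block gave 538 genes higher and 266 lower, with the same 2 members higher and 0 lower. For single named members, 609 values under the alternatives kept their direction and their side of the threshold, and 8 kept their direction and passed the test where the first fit did not. In 32 the direction turned, all of values that did not pass, in 13 members: Hsf1, Hspa4, Hspa5, Hspa8, Hsph1, Hsp90ab1, Hsp90b1, Hspd1, Tcp1, Cct5, Dnajb1, Dnajc12 and Bag1. Of these, 10 turned without control embryos 1 and 2 together. The counts of low members such as Hspa1a (154 in all) limit what can be seen of them.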
